A study of Homo sapiens with 15 samples.

Results

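The genes described here are 10 genes of the ATF4 stress response, namely ATF4, DDIT3, CEBPB, TRIB3, CHAC1, ASNS, DDIT4, SESN2, STC2 and VLDLR. They were chosen by name, with earlier results of these data known: TRIB3 and CHAC1 came into view because their signals were lower 4 h after interleukin 13 (IL-13) than at 0 h. Of these 10 genes, 9 had a probe set carrying their symbol, and SESN2 was not analysed here. The 9 genes had 10 probe sets, since STC2 had 2, and all 9 were among the 6884 genes tested out of 11963 with a probe set of their own. Because the choice rested on measured values, the comparisons with 0 h are given as a description with no test.

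RNA from A549 cells, which the labels call a human bronchial cell line and which is widely used as a line of lung adenocarcinoma epithelial cells, was measured on 15 Affymetrix HG-U133A arrays. The 5 groups of 3 arrays each were untreated cells at 0 h, untreated cells at 24 h, and cells treated with IL-13 for 4 h, 12 h or 24 h. No genotype or other agent is named. Only the 24 h treatment has untreated cells of the same time, so a difference of the 4 h or 12 h arrays from the 0 h arrays holds both treatment and time in culture. The labels do not say whether replicates a, b and c came from separate cultures; the spread that the tests rest on is that among these arrays and may be technical. In RNA from a whole culture, fewer cells making a transcript and less transcript per cell cannot be told apart.

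ATF4 is a basic leucine zipper (bZIP) transcription factor. Shortage of amino acids, misfolded protein in the endoplasmic reticulum and other stresses lead kinases to phosphorylate the initiation factor eIF2alpha, which lowers general translation while translation of the ATF4 message rises. The ATF4 protein, often paired with C/EBP family proteins, binds C/EBP-ATF response elements and raises genes for amino acid synthesis and transport, for redox balance and for the response to lasting stress. ATF4 activity is thus set in large part at translation, which arrays of RNA do not measure.

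The core of such an element, TGATGNAA, was looked for on both strands in the 250 bases before each RefSeq start site (GRCh38.p14) of the 10 genes, to show where the genes that changed together carry these letters. It was found in 2 of the 16 start site windows of the 10 genes, 1 of ASNS and 1 of CHAC1. Some genes have several windows that overlap. Bases farther upstream and after the start site were not searched, so a gene with no match may carry the core there. Of all 35116 windows of this length, 1104, or 3.14%, hold the core. In the ASNS window (chr7:97872409-97872658, minus strand) the letters TGATGAAA lie 68 to 61 bases before the start site, on the strand of the gene. In the CHAC1 window (chr15:40953221-40953470, plus strand) the letters TGATGCAA lie on the opposite strand, 209 to 202 bases before the start site. This exact spelling is in 271 windows, or 0.772%. Both windows follow 5′ to 3′ on the strand of the gene, with the matched letters in capitals. A match is a description of the sequence, and these arrays did not measure binding of ATF4.
ASNS: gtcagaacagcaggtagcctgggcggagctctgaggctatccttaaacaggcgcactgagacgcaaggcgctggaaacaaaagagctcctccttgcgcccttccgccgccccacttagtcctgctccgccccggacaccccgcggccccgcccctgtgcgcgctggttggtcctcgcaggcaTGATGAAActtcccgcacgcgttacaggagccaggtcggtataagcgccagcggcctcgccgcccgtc
CHAC1: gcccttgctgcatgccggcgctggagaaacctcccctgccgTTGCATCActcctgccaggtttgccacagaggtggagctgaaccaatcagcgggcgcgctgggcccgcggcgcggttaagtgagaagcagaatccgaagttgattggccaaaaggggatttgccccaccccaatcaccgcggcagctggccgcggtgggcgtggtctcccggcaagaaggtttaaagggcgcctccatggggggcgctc

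The values are signal intensities as deposited, on a linear scale. The median signal of an array lay between 56.8 and 72.5, and correlations of the log2 values between arrays of a group lay between 0.970 and 0.982. Differences and their standard errors (SE) are on the log2(signal + 20) scale after quantile normalisation, which understates the change of dim genes. Epithelial markers were present, with KRT18, KRT8, ALDH1A1 and AKR1B10 bright in every group and 7 of 8 markers over the filter; EPCAM, at 35.3 to 75.4, was not over it. The summed signal of the 8 markers was 32160 to 37380 over all arrays. Of markers of other cells, 0 of 3 leukocyte genes, 1 of 5 fibroblast genes (COL1A1) and 1 of 4 endothelial genes (PECAM1) were over the filter, with sums of 32.3 to 85.7, 117 to 264 and 72.0 to 115 respectively. The fibroblast sum was 117 to 165 in treated cells at 24 h and 187 to 264 in the other groups. COL1A1 passed the test as lower in treated cells at 24 h than in untreated cells (-0.78 ± 0.15; limma, adjusted p = 0.00495) and than in treated cells at 12 h (-0.61 ± 0.15; adjusted p = 0.0225). Of the 7 epithelial markers tested KRT8 passed as higher in both comparisons, by 0.41 ± 0.07 (adjusted p = 0.0038) and 0.29 ± 0.07 (adjusted p = 0.0284). Against 12 h, those calls were lost in 5 of 16 other settings for COL1A1 and 9 of 17 for KRT8. The part of these markers in the results was not tested. The ratio of the 3′ to the 5′ probe set of actin, a sign of RNA quality, was 1.001 ± 0.065 (SD, n = 3) at 0 h, 1.02 ± 0.08 at 4 h, 1.08 ± 0.05 at 12 h, 1.17 ± 0.07 in untreated cells at 24 h and 1.18 ± 0.08 in treated cells at 24 h. Its part in the results was not tested.

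TRIB3, CHAC1, ASNS, DDIT4 and the other 5 measured genes were all higher at 24 h of IL-13 than at 12 h, from 1.37-fold for VLDLR to 4.02-fold for CHAC1. Each of these differences passed the test, where 4.14% of all genes tested passed as higher and 2.06% as lower. Because the genes were chosen with earlier results known, this is no independent support. Untreated cells at 12 h are not among the samples. None of the 9 genes passed the test between IL-13 and untreated cells at 24 h, where 3.94% of all genes tested passed as higher and 3.07% as lower. The plot of signals by array shows the course that lies behind the results of both comparisons: most of the genes were lower at 4 h and 12 h of IL-13 than at either end, and at 24 h the signals of treated and untreated arrays overlapped except for CHAC1, ASNS and ATF4, whose treated arrays were all higher.

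**Figure D1:**
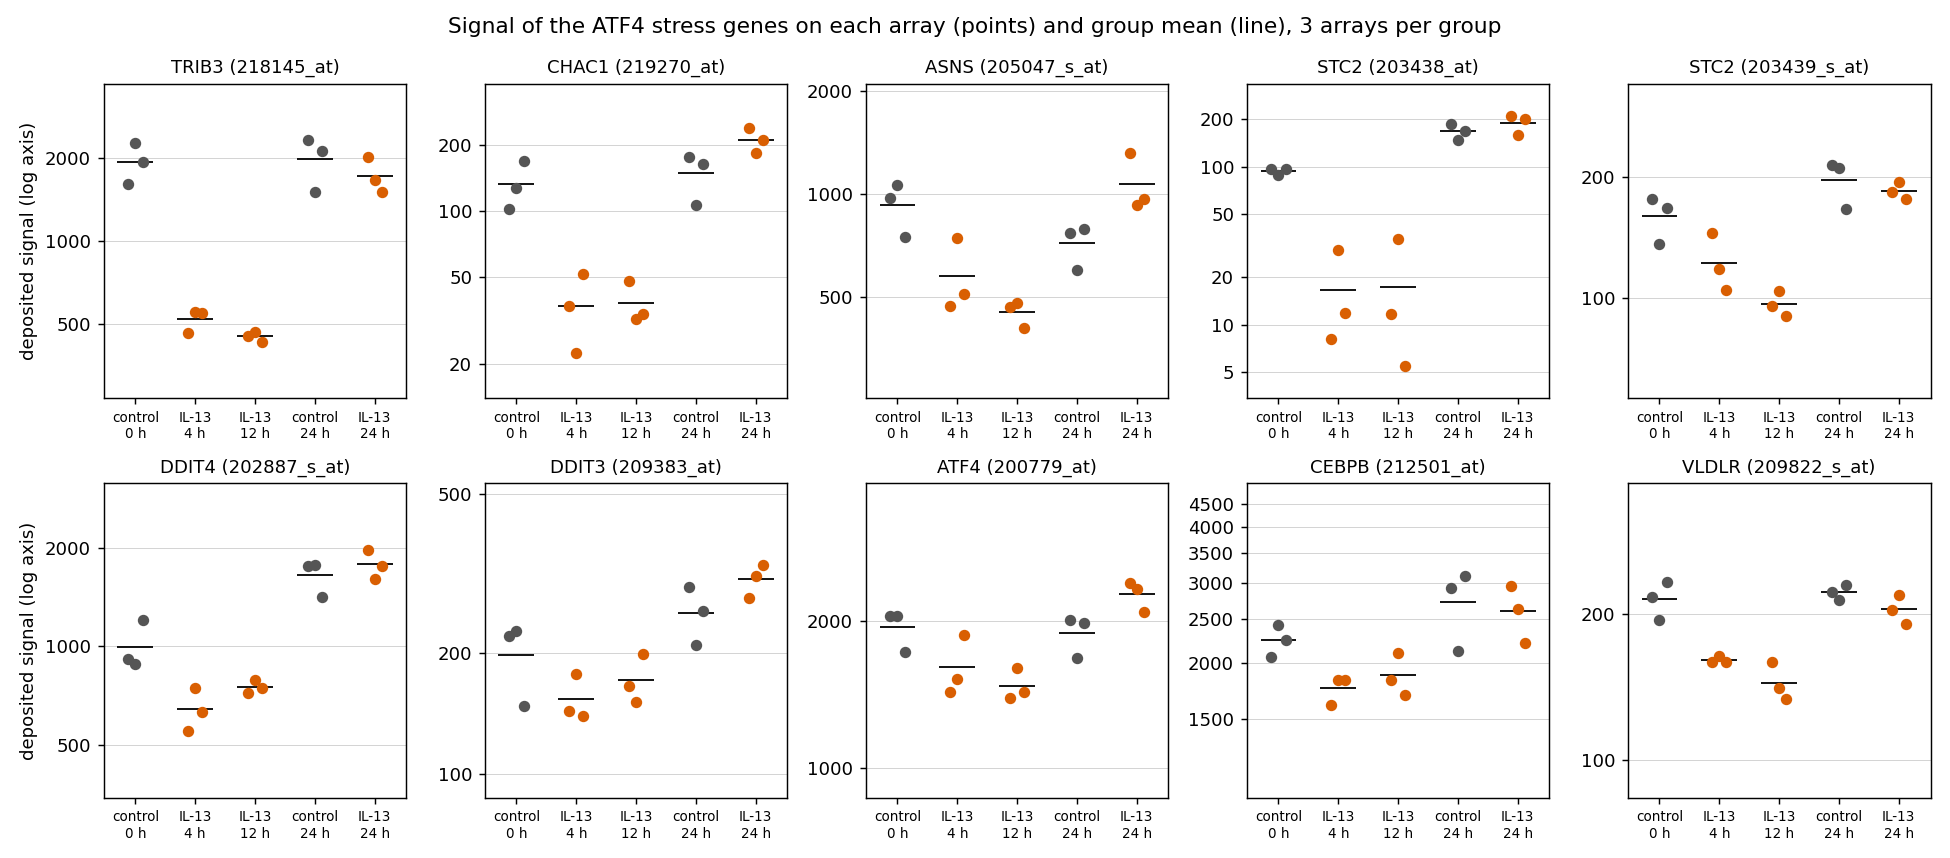
Deposited signal intensity (log axis) of the 10 probe sets of the 9 measured genes in each of the 15 arrays; each point is 1 array and each bar the mean of the 3 arrays of a group. TRIB3 means were 1933 at 0 h, 524 at 4 h and 452 at 12 h of IL-13, and 1980 and 1721 in untreated and treated cells at 24 h.

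TRIB3 encodes a pseudokinase, a kinase-like protein that lacks normal catalytic activity, which ATF4 and DDIT3 raise under lasting stress and which in turn restrains ATF4. The TRIB3 signal in replicates a, b and c was 1612, 2262 and 1925 at 0 h. It was 467, 554 and 551 after 4 h of IL-13 and 454, 471 and 433 after 12 h. The 6 arrays at 4 h and 12 h were therefore all below the 9 others, by a wide gap. At 24 h the signal was 2317, 1507 and 2114 in untreated cells and 2009, 1657 and 1498 in treated cells, so that these groups overlapped with each other and with the 0 h arrays. In log2 terms, TRIB3 was at -1.83 ± 0.15 (SE) at 4 h and -2.03 ± 0.15 at 12 h relative to 0 h. From 12 h to 24 h of IL-13 TRIB3 rose by 1.87 ± 0.15, or 3.64-fold (limma, adjusted p = 7.38e-07; higher in 3 of 3 arrays). Against untreated cells at 24 h the difference of TRIB3 was -0.30 ± 0.15 (95% interval -0.61 to 0.02; adjusted p = 0.243). Leaving out untreated replicate b at 24 h, the dimmest of the 3 for TRIB3, brought this difference to -0.50 (adjusted p = 0.0274), which passed the test. With each array scaled to the same median its sign turned, to 0.041 (limma, adjusted p = 0.894).

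CHAC1 encodes an enzyme that degrades glutathione and is a target of ATF4 in stressed cells. Its signal was dim, at 102, 128 and 170 at 0 h, and lower still at 36.8, 22.4 and 51.6 after 4 h of IL-13 and at 48.2, 32.1 and 34.1 after 12 h. No array of the 4 h and 12 h groups reached any array of the other groups. At 24 h CHAC1 stood at 177, 106 and 165 in untreated cells and at 240, 185 and 212 in treated cells, and here the 3 treated arrays were above the 3 untreated ones. Relative to 0 h CHAC1 was at -1.44 ± 0.21 at 4 h and -1.40 ± 0.21 at 12 h on the log2 scale. From 12 h to 24 h of IL-13 it rose by 2.01 ± 0.21, or 4.02-fold (limma, adjusted p = 1.33e-05; higher in 3 of 3 arrays). The difference of CHAC1 from untreated cells at 24 h was 0.53 ± 0.21 (95% interval 0.10 to 0.97); its p of 0.0196 in limma did not pass after adjustment over all genes (adjusted p = 0.129).

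ASNS, asparagine synthetase, makes asparagine from aspartate and glutamine and is a classic target of ATF4 under amino acid shortage; its promoter window above holds the core on the strand of the gene. The ASNS signal was 972, 1060 and 747 at 0 h, 469, 744 and 510 at 4 h, and 467, 480 and 404 at 12 h of IL-13. All arrays at 4 h and 12 h were below all arrays at 0 h, although replicate b at 4 h came within a few units of replicate c at 0 h. At 24 h ASNS was at 771, 597 and 789 in untreated cells and at 1315, 927 and 967 in treated cells, and these groups did not overlap. ASNS was at -0.65 ± 0.17 at 4 h and -0.96 ± 0.17 at 12 h relative to 0 h on the log2 scale. It rose by 1.18 ± 0.17, or 2.26-fold, from 12 h to 24 h of IL-13 (limma, adjusted p = 0.000451; higher in 3 of 3 arrays). Treated minus untreated ASNS at 24 h was 0.46 ± 0.17 (95% interval 0.12 to 0.81), with an unadjusted p of 0.0119 and an adjusted p of 0.0953 in limma. On the signals as deposited, with no further scaling, this difference of ASNS was 0.55 with an adjusted p of 0.0497, and it then passed the test.

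DDIT4, also called REDD1, restrains the growth kinase complex mTORC1, as does SESN2, and answers to ATF4, to low oxygen and to glucocorticoids. DDIT4 lay above its 0 h signal in both groups at 24 h, as the dimmer probe set of STC2 also did. Its signal was 912, 884 and 1201 at 0 h, 549.2, 746.6 and 628 at 4 h, and 718, 786 and 747 at 12 h of IL-13. At 24 h it was 1760, 1777 and 1422 in untreated cells and 1977, 1605 and 1769 in treated cells. Both groups at 24 h were thus above every array of the other times, and they overlapped with each other. Untreated cells at 24 h stood 0.88 ± 0.13 above 0 h on the log2 scale, or 1.84-fold, and treated cells 0.84 ± 0.13. From 12 h to 24 h of IL-13 DDIT4 rose by 1.20 ± 0.13, or 2.30-fold (limma, adjusted p = 1.90e-05; higher in 3 of 3 arrays). The treated minus untreated difference of DDIT4 at 24 h was -0.04 ± 0.13 (95% interval -0.31 to 0.23; adjusted p = 0.888), a sign that other scalings turned.

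ATF4 itself was bright, at 2055, 2053 and 1729 at 0 h. Its signal was 1433, 1525 and 1875 at 4 h and 1389, 1603 and 1430 at 12 h of IL-13. Replicate c at 4 h lay above replicate c at 0 h, so that these groups overlapped, whereas the 12 h arrays lay below every array at 0 h. At 24 h the ATF4 message stood at 2017, 1678 and 1982 in untreated cells and at 2401, 2336 and 2088 in treated cells, which were all higher as deposited but overlapped with the untreated ones after normalisation. It was at -0.32 ± 0.10 at 4 h and -0.41 ± 0.10 at 12 h relative to 0 h, a smaller distance than that of TRIB3, CHAC1 or ASNS. ATF4 rose by 0.65 ± 0.10 from 12 h to 24 h of IL-13, or 1.57-fold (limma, adjusted p = 0.0011; higher in 3 of 3 arrays). Against untreated cells at 24 h it was at 0.17 ± 0.10 (95% interval -0.04 to 0.39; adjusted p = 0.318).

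DDIT3, also called CHOP, is a C/EBP family protein without a normal DNA-binding region that drives later steps of the stress response. Its signal was 221, 227 and 148 at 0 h, 144, 178 and 140 at 4 h, and 166, 152 and 199 at 12 h of IL-13. These 3 groups overlapped. At 24 h DDIT3 was at 293, 210 and 255 in untreated cells and at 275, 313 and 332 in treated cells, and the treated arrays were above all arrays of the earlier times. It rose by 0.73 ± 0.15 from 12 h to 24 h of IL-13, or 1.66-fold (limma, adjusted p = 0.00874), and the treated minus untreated difference at 24 h was 0.26 ± 0.15 (95% interval -0.07 to 0.58; adjusted p = 0.326). CEBPB, a bZIP factor that pairs with ATF4 and also serves inflammatory signalling, stood at 2059, 2426 and 2244 at 0 h, at 1610, 1834 and 1829 at 4 h, and at 1829, 2104 and 1694 at 12 h. Its signal at 24 h was 2923, 2123 and 3118 in untreated cells and 2959, 2627 and 2217 in treated cells, so that untreated replicate b lay well below its group. CEBPB rose by 0.52 ± 0.12 from 12 h to 24 h of IL-13 (limma, adjusted p = 0.0186), a call lost when replicate a or c at 12 h, or a or b at 24 h, was left out. Treated minus untreated CEBPB at 24 h was -0.16 ± 0.12 (95% interval -0.42 to 0.10; adjusted p = 0.458). Without untreated replicate b it was -0.35 (adjusted p = 0.0481), which passed the test. With each array scaled to the same median it was 0.17 (limma, adjusted p = 0.454).

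STC2, stanniocalcin 2, is a secreted glycoprotein raised by ATF4 and by low oxygen, and its 2 probe sets differed in range. The probe set with the plain _at suffix gave 95.9, 88.4 and 97.1 at 0 h, 8.15, 29.6 and 11.8 at 4 h, and 11.6, 34.8 and 5.48 at 12 h of IL-13. The same set gave 186, 148 and 168 in untreated and 209, 157 and 199 in treated cells at 24 h. In this set the 6 arrays at 4 h and 12 h were all below every array at 0 h and 24 h, in a range that spans the 25th percentile of all deposited values, 19.7. The brighter set, with the suffix _s_at, stands for the gene in the fit and gave 176, 136 and 167 at 0 h, 145, 118 and 104 at 4 h, and 95.3, 104 and 89.8 at 12 h. At 24 h it gave 214, 211 and 166 in untreated and 183, 194 and 176 in treated cells. Relative to 0 h the former set was at -1.70 and -1.72 at 4 h and 12 h, and the latter at -0.33 and -0.63. From 12 h to 24 h of IL-13 STC2 rose by 0.83 ± 0.13 in the brighter set (limma, adjusted p = 0.000865) and by 2.55 ± 0.27 in the _at set when every probe set was tested (adjusted p = 1.33e-05). Both sets thus rose, and the dimmer set by more. Neither showed a call between treated and untreated cells at 24 h, where the differences were -0.03 ± 0.13 in the brighter set (95% interval -0.30 to 0.24; adjusted p = 0.917) and 0.20 ± 0.27 in the _at set.

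VLDLR, the very low density lipoprotein receptor, takes up lipoproteins and has been placed among the targets of ATF4. Its signal was 216, 194 and 232 at 0 h, 159, 164 and 159 at 4 h, and 158.8, 140.4 and 133.4 at 12 h of IL-13. At 24 h it was 222, 214 and 230 in untreated cells and 204, 219 and 190 in treated cells. The 4 h and 12 h arrays were all below the other 9, although the range was narrow. VLDLR rose by 0.45 ± 0.11 from 12 h to 24 h of IL-13, or 1.37-fold (limma, adjusted p = 0.0159), the smallest rise of the 9 genes. This call was lost when replicate c at 12 h or b at 24 h was left out, and when only the arrays of the groups compared were fitted. At 24 h treated minus untreated VLDLR was -0.08 ± 0.11 (95% interval -0.30 to 0.14; adjusted p = 0.696).

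Set side by side against the 0 h arrays, which all 4 comparisons share, TRIB3 was farthest from 0 h at both early times, followed by CHAC1 and then ASNS, where 1 probe set stands for each gene. On the normalised values, all arrays were lower at 4 h of IL-13 than at 0 h for 6 of the 9 genes, and for 9.36% of all genes tested. The 3 whose arrays overlapped were ATF4, DDIT3 and STC2. At 12 h all arrays were lower for 8 of the 9, with DDIT3 as the exception, against 12.1% of all genes tested. The median difference of the 9 genes was -0.40 at 4 h and -0.50 at 12 h. Since TRIB3 and CHAC1 were chosen on such values, these counts support nothing further. In untreated cells at 24 h, with 1 probe set per gene, DDIT4 alone of the 9 had all arrays above 0 h, against 12.2% of all genes tested. The count was 4 when untreated replicate b at 24 h was left out and 2 without untreated replicate c at 24 h or b at 0 h. The _at set of STC2, which does not stand for the gene in the fit, also had all untreated arrays above 0 h (0.63 ± 0.27). In treated cells at 24 h CHAC1, DDIT3, DDIT4 and STC2 had all arrays above 0 h, which is 4 of 9 against 13.7%. TRIB3 was then at -0.17 and in untreated cells at 0.13, within the spread of its arrays at 0 h.

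From 12 h to 24 h of IL-13, 9 of the 9 genes passed the test as higher and 0 as lower, where 4.14% of all genes tested passed as higher and 2.06% as lower. By size of the difference among the 6884 genes tested, CHAC1 ranked 1, TRIB3 2, DDIT4 9 and ASNS 10, and VLDLR, at the other end of the 9, ranked 337. These ranks hold for a pseudocount of 20 and 1 probe set per gene. CHAC1 is dim at 12 h, and with a pseudocount of 62 its difference was 1.45, below the 1.78 of TRIB3, while with a pseudocount of 1 it was 2.47 beside 1.91. The _at set of STC2, at 2.55, lies above both genes in the fit of every probe set. The median difference was 0.83 over the 9 genes and -0.01 over all genes tested. Whether the 24 h and 12 h arrays took part in the choice of the genes is not recorded, so these p-values are values of the fit over the whole table and no independent support. Untreated cells at 12 h are not among the samples, so time in culture and IL-13 cannot be told apart here.

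At 24 h, where treated and untreated cells can be compared at the same time, 0 of the 9 genes passed the limma test in either direction. Of all genes tested 3.94% passed as higher and 3.07% as lower. At an unadjusted p under the same threshold, 2 of the 9 genes would pass, CHAC1 and ASNS, both higher with IL-13. That is near the background, since 1635 of the 6884 genes tested, or 23.8%, would pass that way. The median difference over the 9 genes was -0.03, beside 0.00 over all genes tested. The intervals above hold for this scaling and for all 15 arrays only. With other choices the values moved, to 0.78 ± 0.20 for ASNS with each array scaled to the same median and to -0.50 ± 0.13 for TRIB3 without untreated replicate b. This median scaling moved the median of all genes tested to 0.17, and with it ASNS, ATF4, CHAC1 and DDIT3 passed as higher, and 95.5% of all calls were higher, beside 56.2% in the fit reported here.

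**Figure D2:**
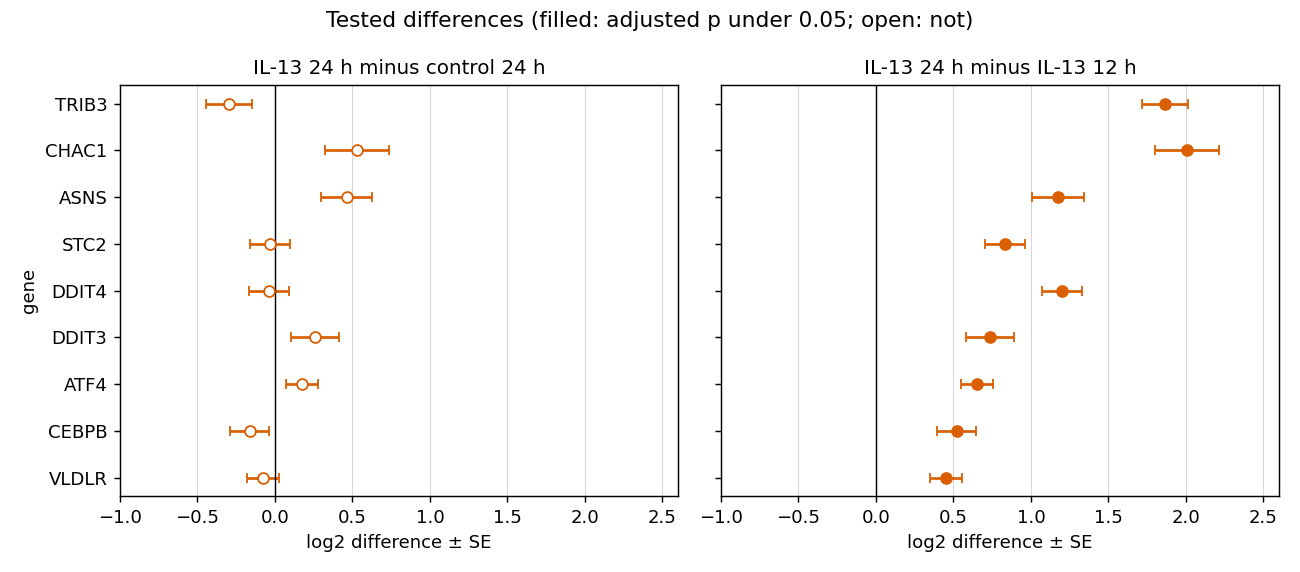
Difference in log2(signal + 20) of each of the 9 measured genes for treated cells at 24 h minus untreated cells at 24 h (left) and minus treated cells at 12 h (right); points are fitted differences, bars 1 SE of the limma fit over 15 arrays, and filled points passed the test. All 9 genes lie above 0 against 12 h, from 0.45 for VLDLR to 2.01 for CHAC1, while against untreated cells at 24 h they lie from -0.30 for TRIB3 to 0.53 for CHAC1.

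Other genes named as targets of ATF4, from a list drawn up with earlier results of these data known, were followed in the same fit. Of the 37 of these 43 genes that were tested, 19 passed as higher at 24 h than at 12 h of IL-13 and 0 as lower. Of all genes tested, 4.14% passed as higher and 2.06% as lower. The median difference of the 37 was 0.45. PMAIP1, which encodes the pro-apoptotic protein NOXA, rose by 1.69 ± 0.14 (limma, adjusted p = 7.38e-07). MTHFD2, a mitochondrial enzyme of folate metabolism, rose by 1.10 ± 0.09 (adjusted p = 7.38e-07), and PSAT1, an enzyme of serine synthesis, by 0.71 ± 0.10 (adjusted p = 0.000451). SLC7A11, the cystine carrier that supplies glutathione synthesis, rose by 0.80 ± 0.12 (adjusted p = 0.000865), and CARS1, a cysteinyl-tRNA synthetase, by 0.75 ± 0.12 (adjusted p = 0.000865). Because of how the list was drawn up, the count of 19 and these p-values are no independent support. The same holds for the lists that follow. All arrays were lower than at 0 h for 23 of the 37 genes at 4 h of IL-13 and for 27 at 12 h, beside 9.36% and 12.1% of all genes tested; since the list was drawn up with such values known, these counts support nothing further. Between treated and untreated cells at 24 h, 1 of the 37 passed as higher and 1 as lower. That is near the background, since 3.94% and 3.07% of all genes tested did so. PMAIP1 was higher by 0.58 ± 0.14 (limma, adjusted p = 0.0203). SLC3A2, which encodes the heavy chain of amino acid transporters, was lower by 0.46 ± 0.12 (adjusted p = 0.0252). Those calls were lost in 3 and 8 of 17 other settings respectively.

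From 12 h to 24 h of IL-13, 4.14% of all genes tested passed as higher and 2.06% as lower. Among 8 tested genes listed as bZIP partners and relatives of ATF4, 3 passed as higher and 0 as lower. They were CEBPG, a C/EBP protein that pairs with ATF4, by 0.98 ± 0.11 (limma, adjusted p = 2.87e-05), NUPR1, a small stress-induced chromatin protein, by 1.13 ± 0.16 (adjusted p = 0.000451), and ATF3, by 0.83 ± 0.13 (adjusted p = 0.000871). ATF3 and NUPR1 are also among the 37 targets, and NUPR1 is not itself a bZIP factor. Of 13 kinases, subunits and phosphatase regulators of eIF2, 1 passed as higher and 0 as lower, and the median was 0.03. It was EIF2S2, which encodes the beta subunit, by 0.72 ± 0.11 (adjusted p = 0.000865). Of 17 chaperones and other genes of the endoplasmic reticulum stress response, 1 passed as higher and 1 as lower, with a median of 0.00. XBP1 rose by 0.76 ± 0.14 (adjusted p = 0.00284) and MANF fell by 0.39 ± 0.10 (adjusted p = 0.0259). The MANF call was lost in 6 of 17 other settings. Between treated and untreated cells at 24 h, 1 of the 17 passed as higher and 0 as lower, beside 3.94% and 3.07% of all genes tested. It was ATF6, a stress sensor of that compartment, higher by 1.14 ± 0.28 (limma, adjusted p = 0.0191). The ATF6 call was lost in 5 of 16 other settings. ATF6 was dim, with mean signals of 120.2 at 0 h and, at 24 h, 59.8 in untreated and 133.5 in treated cells.

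DDIT4 also answers to low oxygen and glucocorticoids, and genes of both responses were measured beside it. From 12 h to 24 h of IL-13, 0 of 9 hypoxia genes tested passed as higher and 0 as lower in limma. Of all genes tested, 4.14% passed as higher and 2.06% as lower. The median of the 9 was 0.08. Of these 9, 1 gene, BNIP3, was at an unadjusted p under the threshold, as were 1415 of all genes tested, or 20.6%. Of 6 glucocorticoid genes tested, 2 passed as higher and 1 as lower, beside the same shares of all genes. TSC22D3, also called GILZ, rose by 1.51 ± 0.12 (adjusted p = 7.38e-07) and DUSP1, a phosphatase of MAP kinases, by 0.57 ± 0.11 (adjusted p = 0.00311). MT2A, a metallothionein, fell by 0.49 ± 0.13 (adjusted p = 0.0294); its probe set can also bind messages of related metallothioneins, and the call was lost in 7 of 17 other settings. Against untreated cells at 24 h, 0 of the 6 passed as higher and 2 as lower, beside 3.94% and 3.07% of all genes tested. MT1X was lower by 0.52 and MT2A by 0.50, again in probe sets of that kind, calls lost in 7 and 8 of 17 other settings respectively.

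**Figure D3:**
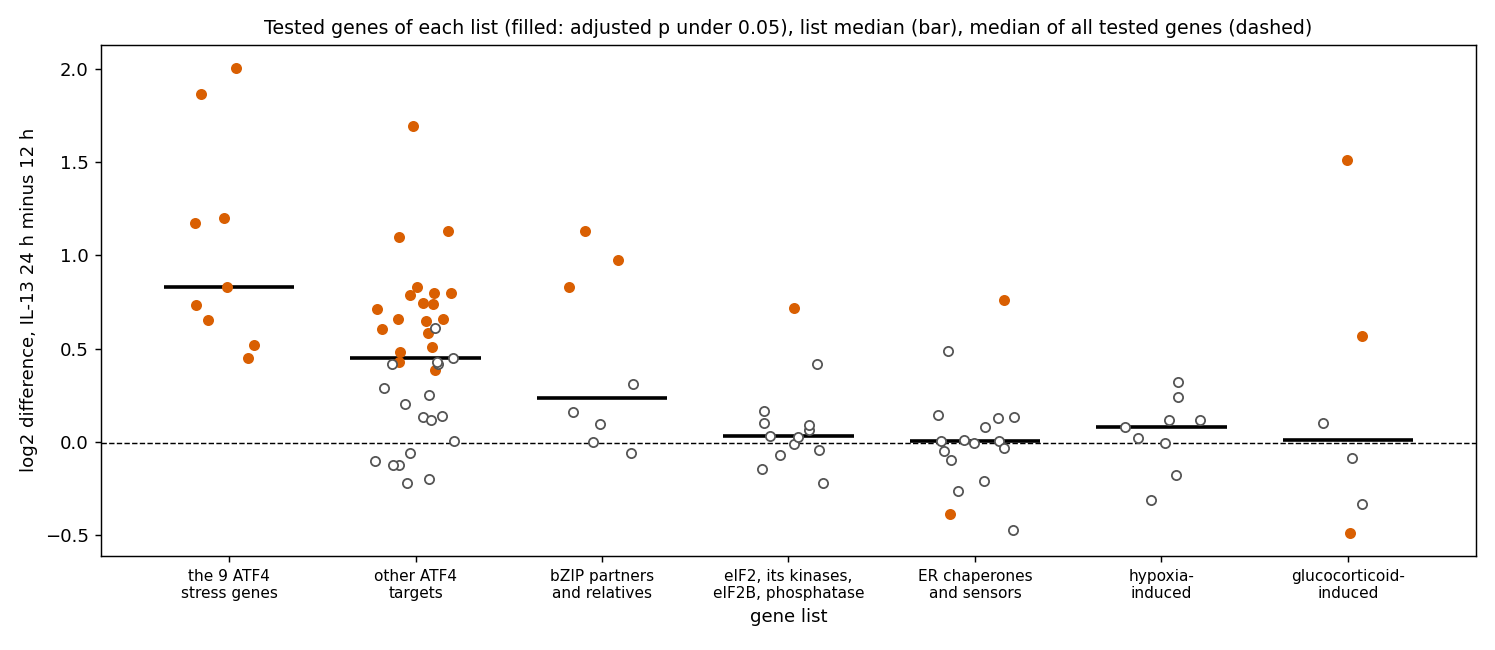
Difference in log2(signal + 20) between 24 h and 12 h of IL-13 (vertical axis) for each tested gene of 7 lists (horizontal axis); each point is a gene, filled where it passed the test, each bar is the median of its list and the dashed line the median of all genes tested. The medians were 0.83 for the 9 genes described here, 0.45 for the other 37 ATF4 targets and 0.03 for the eIF2 genes. The lists are not separate: that of other ATF4 targets shares genes with the bZIP list, ATF3 and NUPR1 among them, and with the eIF2 list.

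The 9 genes moved in step over the 15 arrays to differing degrees. Pearson correlations of their normalised values between pairs of genes ran from 0.53 for DDIT3 and VLDLR to 0.92 for TRIB3 and VLDLR, with a median of 0.80 over 36 pairs. These points share the 5 groups and the processing, and the correlations describe little beyond the course over groups. Among all genes tested, those whose values over the 15 arrays were most like TRIB3 were SMOX, spermine oxidase (r = 0.96), MTHFD2 (0.96), CEBPG (0.95), IER3 (0.94) and SMAD2 (0.93). SMOX, for example, had mean signals of 691 at 0 h, 390 at 4 h and 331 at 12 h of IL-13, and 752 and 873 in untreated and treated cells at 24 h. The genes most like DDIT4 were EIF5 (r = 0.95), TGIF1 (0.95) and JAG1 (0.94), and JAG1, a ligand of Notch receptors, had means of 843, 561, 638, 1153 and 1054 in the same order. Those most like ASNS were TARS1, a threonyl-tRNA synthetase (r = 0.93), CEBPG (0.92) and CCNB1IP1 (0.92).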

How the data were processed

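The deposited values are signal intensities on a linear scale, one per probe set and array; which software the authors summarised them with is not stated in the sources used here. Leaving out the highest and lowest 2% of values, the mean of each array was 150.04 to 150.06. Of 22283 probe sets, 68 were controls, 19065 had 1 gene symbol in the platform annotation, 1043 several and 2107 none. From these values log2(signal + 20) was computed and quantile-normalised, since array medians differed by 0.35 on the log2 scale. Each gene was represented by its brightest probe set, with sets of the suffix _x_at used only where no other existed. Sets of the suffix _s_at were not set aside. Genes with a mean over 6.33, the median of all sets, were kept. A mean per group was fitted over all 15 arrays with limma 3.58.1 in R 4.3.3 (eBayes with trend, 10 residual degrees of freedom), and p-values were adjusted by Benjamini-Hochberg over 6884 genes, with 0.05 as the threshold. Only the 2 comparisons of treated cells at 24 h, with untreated cells at 24 h and with treated cells at 12 h, were tested. The number of arrays limits the precision. The members and gene lists were chosen with earlier results of these data known. Apart from markers of cell types, genes outside the 9 were named where they passed the test, at most 6 per list and comparison by smallest p. In addition BNIP3 was named for its unadjusted p, as were MTHFD2 and the genes most like TRIB3 (5), DDIT4 (3) and ASNS (3) without regard to the test. Alternatives varied the scaling, pseudocount, filter, choice of probe sets, arrays fitted and the replicate letter as a block, and left out each array in turn. The scripts were tested on simulated data. Promoter windows are from RefSeq.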

Additional observations from a re-analysis of the deposited data

How the results depend on the processing

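Each result was recomputed under 12 other settings and, for each comparison, with each of its 6 arrays left out in turn. The 9 genes that passed from 12 h to 24 h of IL-13 stayed higher under all of them, with 7 to 9 passing where they were tested as genes; the 7 included a filter at the 75th percentile, which left 2 of them untested. Between treated and untreated cells at 24 h, where 0 passed, the count was 1 on the values as deposited, 4 with each array scaled to the same median, and 0 to 2 with an array left out. Of all genes, 482 passed there, 1238 with median scaling, 243 with only the arrays of the groups compared, and 194 to 539 with an array left out, the fall being over 1.5 times without untreated replicate a or c or treated replicate a or c. From 12 h to 24 h, 427 of all genes passed, and 194 to 369 with an array left out, with such a fall without replicate a or c at either time. Genes with all untreated arrays at 24 h above 0 h numbered 1, but 0 with median scaling, 2 with the probe sets of a gene averaged or with every probe set tested, and 1 to 4 with an array left out. For treated arrays at 24 h the count of 4 became 2 with the filter at the 75th percentile, where fewer genes were tested. The treated minus untreated difference at 24 h turned sign with median scaling for TRIB3 (0.041), DDIT4 (0.34), STC2 (0.13), VLDLR (0.10) and CEBPB (0.17), none of which had passed the test. DDIT4 was also at 0.11 on the values as deposited and from -0.146 to 0.039 with an array left out, and STC2 at 0.086 with its probe sets averaged and from -0.142 to 0.033 with an array left out. Except for the shift that median scaling gives to all genes, the cause was not tested.

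The replicate letters did not pair the arrays: deviations from the group means correlated at 0.11, -0.16 and -0.23 between treated and untreated arrays of the same letter at 24 h. With the letter as a replicate block, 0 of the 9 genes passed at 24 h and 9 from 12 h to 24 h, and of all genes 390 and 360 passed. Dim signals, CHAC1 and the _at probe set of STC2 above all, limit what the fold changes can show.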
